A study of Mus musculus with 44 samples.

Results

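Brain blood vessels were represented by 10 genes, Cldn5, Cdh5, Pecam1, Bcam, Flt1, Kdr, Tek, Slco1a4, Ly6c1 and Itm2a, taken from a list of endothelial and vascular markers by symbol. All 10 were among the 50714 genes present in every count table, and the rule uses no measured value. They were followed through 44 RNA libraries from mouse dorsal cortex and hippocampus, harvested at postnatal days 28 to 29. Every mouse, controls included, carried CX3CR1-CreERT2 (+/-) x RPL10a-GFP flox (+/-) per the sample labels, whereas the series text gives the floxed allele as fl/fl. The Cx3cr1 promoter, active in microglia, drives a Cre recombinase that needs tamoxifen, and recombination then tags the ribosomal protein RPL10a with GFP. Tamoxifen mice received 100 mg/kg at postnatal days 15, 17 and 19, and control mice vehicle at the same ages per the labels or no treatment per the series text.

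Each replicate letter has 4 libraries. Input is the RNA of the homogenate, and MG_TRAP is what a GFP immunoprecipitation (translating ribosome affinity purification, TRAP) recovered from it. SN_input is the RNA of a synaptosome preparation, made of sealed synaptic endings with what adheres to them, and PeMP_TRAP is the immunoprecipitate of that preparation, meant to hold the ribosomes of peripheral microglial processes. Letters A to C are controls and D to F tamoxifen mice of a first set of 24 libraries. Letters G to K are tamoxifen mice of a second set of 20 libraries, in which the last fraction is named SN_TRAP. All control libraries used here are in the first set. The labels do not say that a letter is 1 animal, so p-values measure the spread between libraries, which may be technical.

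Endothelial cells line the vessels of the brain and form the blood-brain barrier. Claudin-5 seals their tight junctions, VE-cadherin (Cdh5) holds their adherens junctions, and vessel growth and upkeep run through VEGF receptors and the angiopoietin receptor Tek. Transporters such as Slco1a4 move organic anions across the barrier, and microglia touch the capillaries without being part of them. Some of these genes are also known in other cells: Pecam1 and Flt1 in myeloid cells, Bcam in the muscle cells of vessels, and Itm2a in lymphocytes.

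On GRCm38, by GENCODE M21, Cldn5 spans chr16:18776847-18778262, Cdh5 chr8:104101625-104144511 and Tek chr4:94739289-94874976, all on the plus strand. On the minus strand, Pecam1 spans chr11:106654217-106750628 and Bcam chr7:19756131-19771016. Flt1 and Kdr share a chromosome, at chr5:147561604-147726011 and chr5:75932827-75978458. Slco1a4 lies at chr6:141805440-141856199, Ly6c1 at chr15:75044018-75048830 and Itm2a at chrX:107397099-107403376, also on the minus strand. All 10 are protein-coding.

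The libraries differed strongly in size and content. Assigned reads ran from 746616 to 35584637 per library, and levels are given as CPM, counts scaled to a common library size after TMM scaling. A floor of 3 counts lay between 0.0792 and 4.89 CPM and was highest in PeMP_TRAP F. Reads copied by PCR are not independent molecules, so floors and count intervals cover counting error only. PeMP_TRAP libraries of the second set held 5425 to 7436 detected genes, against 9443 to 10488 in control and 11736 to 13141 in first-set tamoxifen PeMP_TRAP libraries, and 10055 to 22949 in the other fractions. Of 20 microglial markers, all 20 were higher in MG_TRAP than in Input of tamoxifen mice by edgeR, where 4.67% of all genes were. P2ry12, a purinergic receptor of microglia, had a mean of 2231 CPM in MG_TRAP and 20.3 CPM in Input.

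The vessel genes were scarce wherever brain RNA was taken whole. In Input of the second set, the Input group with the lowest floors, 49 of 50 values (10 genes in 5 libraries) exceeded 3 counts. In Input of the first set it was 5 of 30 values in controls and 13 of 30 after tamoxifen. Per kb of exon, the median level over these second-set Input libraries was 6.08 CPM per kb for Itm2a, a membrane protein with a BRICHOS domain. It was 1.01 for Cldn5 and 0.995 for Ly6c1, a lipid-anchored surface protein of capillary endothelium. Bcam, a laminin receptor, followed at 0.769 and Slco1a4 at 0.390. The junction gene Cdh5 lay at 0.161, the adhesion molecule Pecam1 at 0.089, and the receptors Kdr at 0.087, Flt1 at 0.066 and Tek at 0.037 CPM per kb. In their ranges over these 5 libraries Itm2a stood above all others, Cldn5 and Ly6c1 overlapped, and Bcam overlapped with neither Ly6c1 above it nor Slco1a4 below it. From Slco1a4 down, each gene overlapped with the next. With the length of the longest transcript in place of all exons, Ly6c1 came to 1.98 CPM per kb and lay above Cldn5. The other members rose as well, such as Bcam with 2429 bases in place of 3199, except Itm2a and Cldn5, whose lengths stayed the same. A cell type that makes up little of the tissue and one with little RNA per cell cannot be told apart in such bulk samples.

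**Figure D1:**
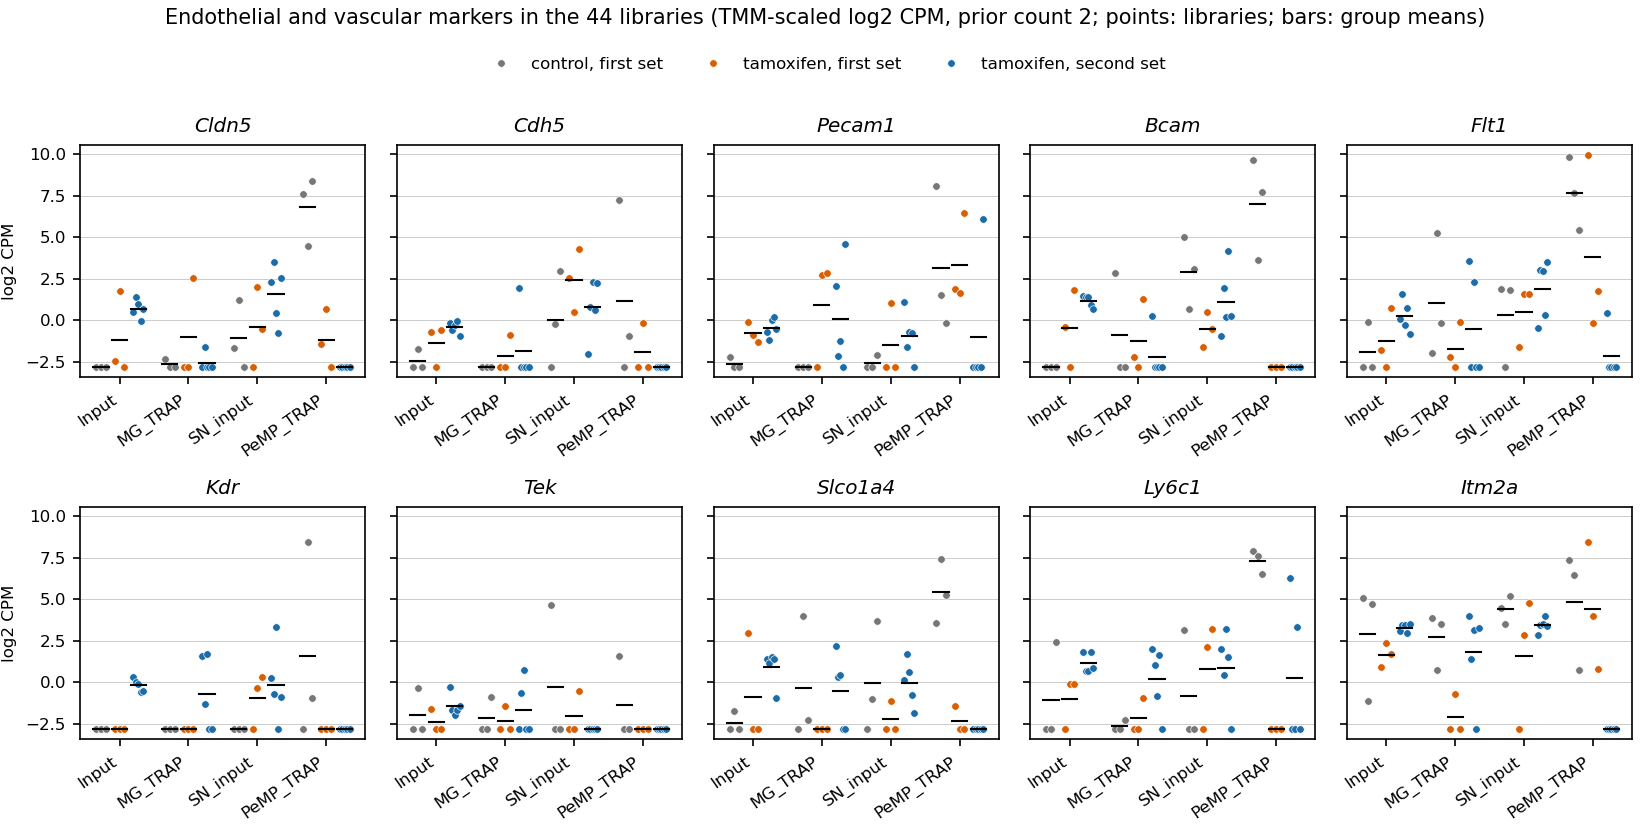
Level of each of the 10 vessel genes in every library (log2 CPM, prior count 2), by fraction, with control, first-set tamoxifen and second-set tamoxifen libraries apart; points are libraries and bars group means. In Input most points lie low, apart from Itm2a in some control libraries, and the highest points of 7 of the 10 genes are control PeMP_TRAP libraries.

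The immunoprecipitates from the synaptosome fraction held the widest range of vessel RNA. In control mice, which received no tamoxifen, 22 of 30 values exceeded 3 counts in PeMP_TRAP. After tamoxifen it was 6 of 30 in the first set and 4 of 50 in the second set. The library with the highest level was a control PeMP_TRAP library for 7 of the 10 genes, against 3286 of 14771 genes tested in the first set, which is 22.2%. The exceptions were Flt1 and Itm2a, highest in PeMP_TRAP of tamoxifen replicate D, and Tek, highest in SN_input of control replicate A.

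Tamoxifen was compared with control in PeMP_TRAP within the first set, 3 libraries a side, with edgeR's quasi-likelihood test. Tek and Kdr did not pass the filter on low counts, and of the 8 genes tested 3 were lower, Cldn5, Bcam and Ly6c1, while none was higher. Over all 14771 genes 5.56% were lower at an adjusted p under 0.05. The median fitted log2 change of the 8 was -8.23, and -3.64 with the 5 genes at or under 3 counts set at the bound that 3 counts allow, against 0.00 over all genes. Cldn5 passed the filter only through the control PeMP_TRAP libraries, where it was high, and 7 of the 10 passed without them. The count and the median over the genes that passed are therefore a description, and support nothing about the 10 genes. Where groups are said below not to overlap, the share of all genes without overlap is not given, so that too is a description.

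Among the junction and adhesion genes, Cldn5 was counted 475, 16 and 879 times in control PeMP_TRAP libraries A, B and C and 1, 2 and 0 times in tamoxifen libraries D, E and F. These are 195, 22.2 and 334 CPM against 0.224, 1.46 and 0, and the groups did not overlap. The edgeR log2 change was -8.44 ± 2.66 (SE) with an adjusted p of 0.0362, in a gene that was tested only because it was high in the controls. Summed over libraries, control exceeded tamoxifen 507-fold per library size, with a 95% exact counting interval of 173 to 2463. This interval leaves out the spread between libraries. The adjusted p of edgeR was 0.051, 0.090, 0.072 and 0.11 without replicates A, C, D and F in turn, 0.077 without control PeMP_TRAP library C alone, and 0.14 when only these 6 libraries were fitted. With limma voom it was 0.095.

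Bcam was counted 1947, 9 and 553 times in control PeMP_TRAP libraries and never in the 3 tamoxifen ones. Its control levels were 798, 12.5 and 210 CPM. The groups did not overlap, the edgeR log2 change was -14.28 ± 3.21 with an adjusted p of 0.00799, and the mean was at least 69.5-fold lower when tamoxifen is placed at the floor. A fitted change against a group at 0 depends on the model and is no bound, here and below. With limma voom the log2 change was -7.98 with an adjusted p of 0.0561.

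The other members of this group rested on 1 control library. Cdh5 had 367, 0 and 1 counts in control PeMP_TRAP and 0, 1 and 0 after tamoxifen. The groups overlapped and the edgeR log2 change of -8.02 ± 3.07 had an adjusted p of 0.0749. Pecam1 had 663, 2 and 2 counts in controls and 16, 4 and 54 after tamoxifen, with an adjusted p of 0.49 by edgeR. Control library A was the only control library with more than 2 counts of either gene.

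The VEGF receptors were each high in a few libraries. Flt1, which binds VEGF-A, VEGF-B and placental growth factor, had 2241, 146 and 116 counts in control PeMP_TRAP and 4370, 1 and 2 after tamoxifen. Its level in tamoxifen library D, 980 CPM, lay beside the highest control, 918 CPM, while the other tamoxifen libraries were at 0.731 and 3.26 CPM. The edgeR log2 change was -0.97 ± 1.66 with an adjusted p of 0.723.

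Kdr, the main signalling receptor for VEGF-A, was counted 250 times in control library B, at 347 CPM, once in C and not in A. It was at 0 in all 3 first-set tamoxifen PeMP_TRAP libraries, and its mean there was at least 23.6-fold lower than in controls. No test was made of that fold, since Kdr did not pass the filter. Tek had 7 counts in control library A and 0 in the other first-set PeMP_TRAP libraries.

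**Figure D2:**
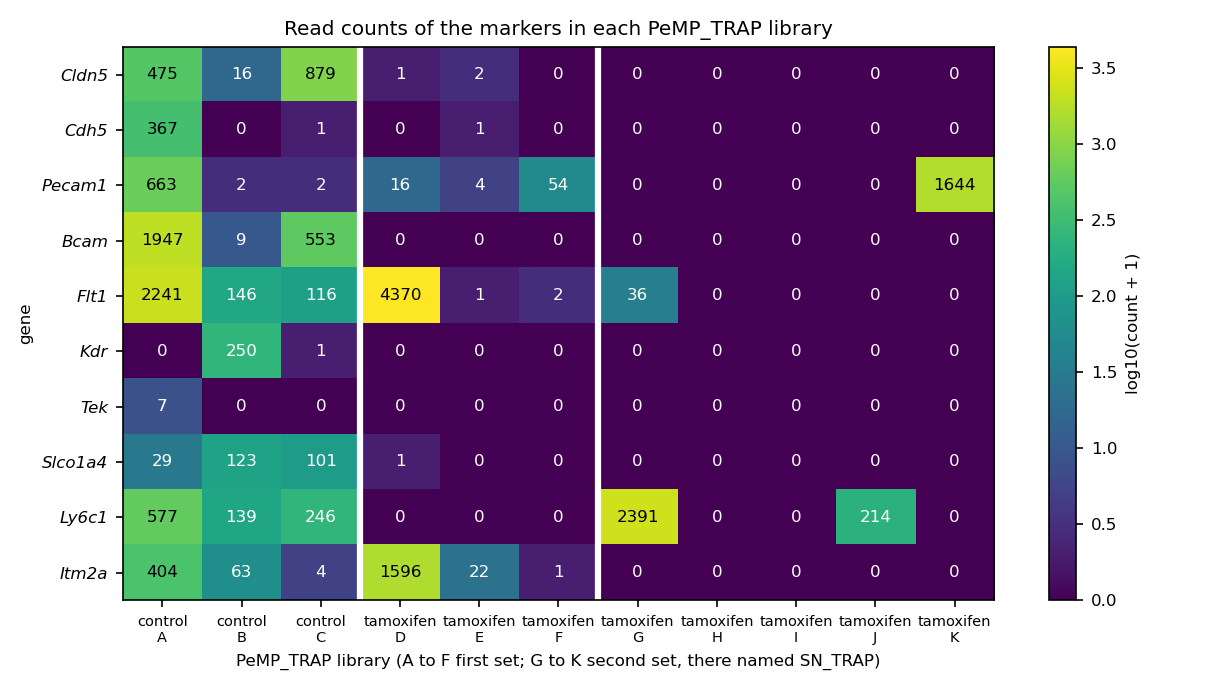
Counts of the 10 vessel genes (rows) in the 11 PeMP_TRAP libraries (columns, grouped as control A to C, first-set tamoxifen D to F and second-set tamoxifen G to K), colour on a log scale and the count printed in each cell. Counts fill most cells of the 3 control libraries, although those of Cdh5, Pecam1, Kdr and Tek lie almost all in a single library each. After first-set tamoxifen counts sit in a few cells, such as 4370 of Flt1 in D, and in the second set 46 of 50 cells are 0.

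Of the transport and surface genes, Ly6c1 had 577, 139 and 246 counts in control PeMP_TRAP libraries and 0 in all 3 first-set tamoxifen ones. The control levels were 236, 193 and 93.4 CPM, the closest to each other of any of the 10 genes there. The edgeR log2 change was -13.26 ± 3.57 with an adjusted p of 0.0191, the groups did not overlap, and the mean was at least 35.6-fold lower. The adjusted p was 0.051 with replicate D and 0.071 with replicate F left out, and 0.070 when only these 6 libraries were fitted.

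Slco1a4 had 29, 123 and 101 counts in controls and 1, 0 and 0 after tamoxifen. The groups did not overlap, but the edgeR log2 change of -9.41 ± 3.29 missed the threshold, with an adjusted p of 0.0545. Summed counts gave a ratio of 281 with a 95% exact counting interval of 49.99 to 11145, which leaves out the spread between libraries. Itm2a had 404, 63 and 4 counts in controls and 1596, 22 and 1 after tamoxifen. These ranges overlapped, and the log2 change was -0.12 ± 1.70 with an adjusted p of 1 by edgeR.

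Ly6c1 has a near-identical neighbour, Ly6c2, a marker of monocytes, and reads of the 2 genes may be shared. Over the 393 coding bases they are 97.7% identical, with 9 mismatches and a longest identical run of 188 bases. The first 120 coding bases of both, from GENCODE M21 on GRCm38, are shown because they hold 6 of the 9 mismatches that could separate the reads, with the mismatched bases in capitals. The transcripts lie on the minus strand at chr15:75045013-75048830 (Ly6c1) and chr15:75108161-75111970 (Ly6c2).
Ly6c1: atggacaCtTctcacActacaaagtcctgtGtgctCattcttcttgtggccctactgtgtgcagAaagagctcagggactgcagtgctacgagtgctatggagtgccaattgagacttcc
Ly6c2: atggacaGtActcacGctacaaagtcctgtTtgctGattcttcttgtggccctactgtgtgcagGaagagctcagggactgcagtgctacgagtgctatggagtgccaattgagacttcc
Ly6c2 had 17 counts in PeMP_TRAP of control A, where Ly6c1 had 577, and 99 in tamoxifen J, where Ly6c1 had 214. Slco1a4 is less close to its neighbours: its coding sequence is 89.4% identical to that of Slco1a5, 86.7% to Slco1a1 and 85.0% to Slco1a6. The rule by which the authors counted reads that fit several genes is not given in the sources used here, so Ly6c1 values are uncertain to that extent.

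Markers of mural cells, the pericytes and smooth muscle cells that wrap vessels, were high in the same control libraries. The summed level of 16 mural markers was 1417 to 6875 CPM in control PeMP_TRAP, 9.78 to 43.9 CPM in first-set tamoxifen and 0 to 110 CPM in the second set. The leading genes differed by library: Acta2 at 3216 and Myh11 at 1505 CPM in control A, Pdgfrb at 750 CPM in B, and Rgs5 at 746 and Vtn at 702 CPM in C. Of the 16 markers 13 exceeded 3 counts in at least 1 control PeMP_TRAP library, while the pericyte genes Kcnj8, Abcc9 and Anpep were at 0 in all 3. Kcnj8 was at 0 in every first-set Input library as well. The summed level of the 10 endothelial genes was 722.5 to 2750 CPM, 21.9 to 1343 CPM and 0 to 80.1 CPM in the same 3 groups, and that of 20 microglial markers 1176 to 19762, 51213 to 245894 and 24875 to 37675 CPM. Mitochondrial reads were 6.16% to 31.6% in control, 1.06% to 23.9% in first-set and 9.81% to 31.4% in second-set PeMP_TRAP libraries. The part of other cells, RNA quality and the amount of RNA recovered in these differences was not tested.

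**Figure D3:**
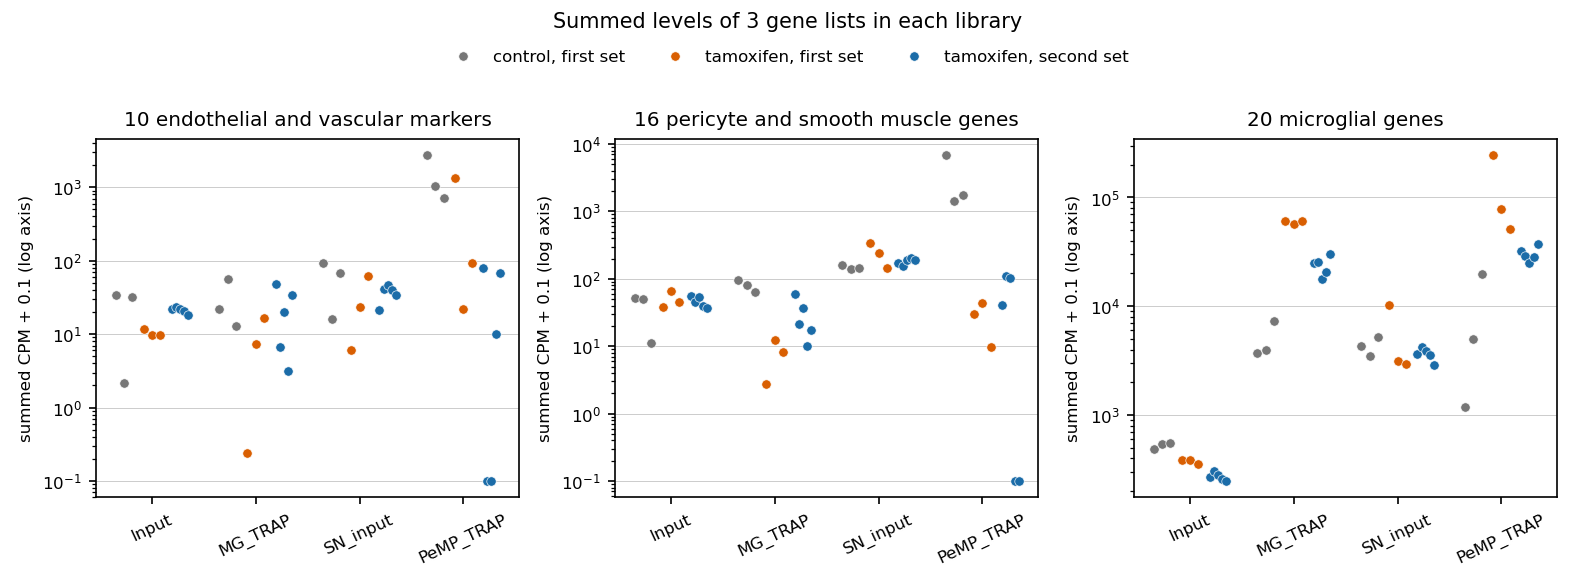
Summed level (CPM plus 0.1, log axis) of the 10 endothelial genes, 16 mural markers and 20 microglial markers in every library, by fraction and group; each point is a library. Mural sums are highest in the 3 control PeMP_TRAP libraries, where endothelial sums are 722.5 to 2750 CPM, with 1 tamoxifen library at 1343 CPM, and where the microglial sum, 1176 to 19762 CPM, lies below that of the tamoxifen PeMP_TRAP libraries.

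In the other fractions none of these genes passed the test between tamoxifen and control. In Input, MG_TRAP and SN_input 0 of the 8 genes tested passed with edgeR, and the share over all 14771 genes was 0% in each, although 452, 2351 and 495 genes had an unadjusted p under 0.05. Itm2a spread widely among replicates: in Input it was at 33.9, 0.320 and 26.6 CPM in controls and 1.74, 5.04 and 3.10 CPM after tamoxifen, and the groups overlapped.

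The synaptosome fraction itself carried vessel RNA, and PeMP_TRAP was next compared with it over 8 tamoxifen letters, 3 of the first and 5 of the second set, with the set as a covariate. Of the 9 genes tested, all but Tek, edgeR called 5 lower in PeMP_TRAP, Kdr, Bcam, Cdh5, Cldn5 and Slco1a4. Over all 15710 genes tested 26.1% were lower. Pecam1 was the only member higher, where 6.15% of all genes were. The median log2 change of the 9 was -4.98, against -0.75 over all genes. With the 5 genes at or under 3 counts in PeMP_TRAP set at their bound it was 1.51, because the floor of the shallowest library, 4.89 CPM in PeMP_TRAP F, exceeded their SN_input means. With limma voom none of the 9 was called, and the log2 change was -0.33 for Kdr and -2.41 for Bcam. In the first set alone 2 members passed the filter and neither was called, and with only these 16 libraries 6 passed and 2 were called.

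Cldn5 had 51, 118, 16, 4 and 43 counts in SN_input G to K and 0 in every PeMP_TRAP library of the second set. It was lower in 7 of 8 letters, with an edgeR log2 change of -6.69 ± 1.94 and an adjusted p of 0.00728. In the second set its mean in SN_input was 4.66 ± 4.25 CPM (SD, n = 5), and PeMP_TRAP, placed at the floor, was at least 30.4-fold lower. That bound covers counting error only. Of all genes with Input levels in the members' range, 63.5% were at 0 in every second-set PeMP_TRAP library.

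Cdh5 was lower in 8 of 8 letters, from 1, 17, 62, 13 and 35 counts in SN_input G to K to 0 in PeMP_TRAP. Its edgeR log2 change was -7.25 ± 1.87 with an adjusted p of 0.00292. Bcam, with 4, 40, 13, 162 and 8 counts in the same SN_input libraries, was at 0 in all 8 tamoxifen PeMP_TRAP libraries and did not overlap between fractions. Its log2 change was -8.78 ± 1.93 with an adjusted p of 0.000964.

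Pecam1 went the other way, but in few libraries. It had 54 counts in PeMP_TRAP F and 1644 in K, 16 and 4 in D and E and 0 in G to J, against 0 to 21 counts in SN_input. The edgeR log2 change was 4.97 ± 1.73 with an adjusted p of 0.0248, yet it was higher in only 4 of 8 letters and lower in the other 4. The adjusted p was 0.11 without replicate F, 0.37 without K and 0.43 with the letter as a replicate block.

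Among the receptors, Kdr was at 0 in all 8 tamoxifen PeMP_TRAP libraries and had 0 to 132 counts in SN_input. It was lower in 6 letters and at 0 in both fractions in the rest, with an edgeR log2 change of -9.11 ± 2.02 and an adjusted p of 0.00104. Flt1 had 6, 86, 99, 10 and 87 counts in SN_input G to K and 36, 0, 0, 0 and 0 in PeMP_TRAP, but 4370 in PeMP_TRAP D. Its log2 change of 4.93 ± 2.64 had an adjusted p of 0.154, with 3 letters higher and 5 lower. The sign of Flt1 was not stable: it was at -3.16 without replicate D, -2.52 with the letter as a replicate block, -2.06 with only these 16 libraries and -0.85 with limma voom, and passed the test in none of these. Without the filter on low counts Flt1 was called, at 4.73 with an adjusted p of 0.041 by edgeR.

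Slco1a4 was lower in 6 of 8 letters, with a log2 change of -4.98 ± 1.87 and an adjusted p of 0.0376 by edgeR, a call that ended without any 1 of replicates G to K. Ly6c1 had 2391 counts in PeMP_TRAP G and 214 in J and 0 in the other tamoxifen libraries, against 41, 13, 121, 25 and 0 in SN_input G to K. Its log2 change of 0.09 had an adjusted p of 0.988, and Ly6c1 was at -2.54 without G, -2.31 with the block and -1.28 with limma voom. Itm2a was detected in all second-set SN_input libraries, with 75, 116, 147, 145 and 78 counts, and in no second-set PeMP_TRAP library. Placed at the floor there, Itm2a was at least 72.1-fold lower, a bound for counting error only. Its change over all 8 letters was 1.88 ± 2.08 with an adjusted p of 0.531, and PeMP_TRAP D of the first set had 1596 counts. Itm2a was at -3.95 without D, -2.12 with the block, -6.98 with only these 16 libraries and -2.68 with limma voom.

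**Figure D4:**
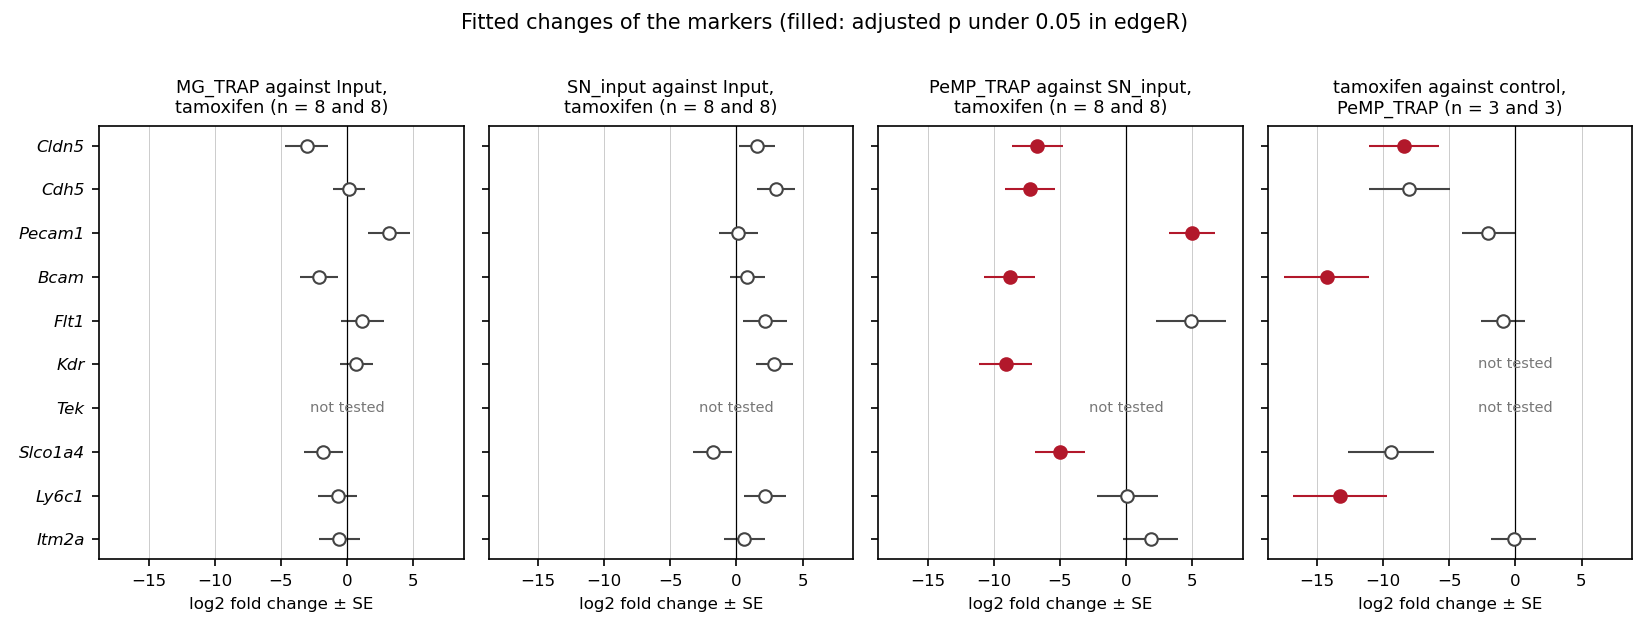
Log2 fold change with its standard error of each tested vessel gene in 4 comparisons fitted with edgeR (MG_TRAP against Input, SN_input against Input and PeMP_TRAP against SN_input in tamoxifen mice, and tamoxifen against control in PeMP_TRAP); filled points have an adjusted p under 0.05. No point is filled in the comparisons with Input, 6 are filled for PeMP_TRAP against SN_input and 3 for tamoxifen against control.

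Counts of 0 were common in second-set PeMP_TRAP beyond these genes. Of the 10 members 7, or 70%, were at 0 in all 5 libraries, and so were 33.5% of all 15710 genes tested. Among 7641 genes whose mean Input level in the second set lay between those of Tek and Itm2a, 0.269 and 9.75 CPM, it was 63.5%. The difference between sets was tested as an interaction. PeMP_TRAP against SN_input was lower in the second set than in the first for Cldn5 (-7.95 ± 2.73, adjusted p = 0.045), Flt1 (-11.94 ± 3.55, adjusted p = 0.0179) and Itm2a (-13.99 ± 2.90, adjusted p = 0.00128) by edgeR, and 14.9% of 17961 genes were. The Cldn5 call ended without any 1 of the 8 replicates and under every other setting run but scaling by total counts, with an adjusted p of up to 0.22. The Flt1 call ended without D, E or F, with Flt1 at -3.93 without D, and with limma voom no member was called. PeMP_TRAP against MG_TRAP was lower in the second set for Flt1, Itm2a and Slco1a4, where 14.8% of genes were. There the Flt1 call ended without D or E and the Slco1a4 call without D, E, F or G, and both ended with limma voom, while Itm2a was called in each of these. For MG_TRAP against Input and SN_input against Input no member and 0% of genes passed between sets with edgeR, with 1070 and 619 genes at an unadjusted p under 0.05. Set and library preparation cannot be told apart.

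In whole-cell microglial TRAP no vessel gene passed the main edgeR test in either direction. In tamoxifen mice 0 of 9 members passed between MG_TRAP and Input with edgeR, where 6.82% of all genes did, and 2519 genes had an unadjusted p under 0.05. The median log2 change of the members was -0.57, against -0.14 over all genes. Cldn5 was lower in 7 of 8 letters, at 0 in 6 MG_TRAP libraries and 15 counts in F, with a log2 change of -3.05 ± 1.65 and an adjusted p of 0.381. Pecam1, at 3.20 ± 1.58, had an adjusted p of 0.309 and 794 counts in MG_TRAP K. Other settings did give calls, all lower: 2 with limma voom, and 1 each in the second set alone, without replicate F and without G. The call without G was Cdh5, at -4.72 with an adjusted p of 0.0358 by edgeR.

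Between SN_input and Input of tamoxifen mice, edgeR called 0 of 9 members and 2.55% of all genes. The median log2 change of the members was 1.58, against -0.02 over all genes. Cdh5 was higher in SN_input in 7 of 8 letters, with 2.99 ± 1.45 and an adjusted p of 0.429.

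PeMP_TRAP was also set against MG_TRAP in tamoxifen mice. Kdr (-6.94 ± 1.83, adjusted p = 0.0054), Bcam (-5.88 ± 1.76, adjusted p = 0.0125) and Slco1a4 (-4.99 ± 1.90, adjusted p = 0.0481) were lower by edgeR, 3 of 9, where 22% of all genes were. Each of these 3 was lower in 3 of 8 letters, the rest being mostly at 0 in both fractions. The Bcam call ended without replicate G (adjusted p = 0.10), that of Slco1a4 without any 1 of replicates G to K, and with limma voom none of the 3 was called, with Bcam at 1.11 and Kdr at -0.48. With the letter as a replicate block 1 of the 3 was called, Kdr. The median of the 9 was -2.07, against -0.57 over all genes, and it lay above 0 with the 5 genes at or under 3 counts set at the bound that the floor of PeMP_TRAP F allows. The difference between both enrichments, PeMP_TRAP over SN_input minus MG_TRAP over Input, was below 0 for Kdr (-9.82 ± 2.27, adjusted p = 0.00536), Cdh5 (-7.38 ± 2.21, adjusted p = 0.0241) and Bcam (-6.69 ± 2.05, adjusted p = 0.0294), 3 of 9 members against 10.9% of all genes. The median of the 9 was -3.18, against -0.79 over all genes. The Bcam call ended without any 1 of replicates G to K and the Cdh5 call without F, G, H, I or K, with Cdh5 at -2.30 without G. With limma voom, and with the letter as a replicate block, no member was called.

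In control mice edgeR with the filter on low counts called none of the 8 members tested between the same fractions. DESeq2 called 1 for MG_TRAP against Input, 2 for PeMP_TRAP against SN_input and 1 for SN_input against Input. Without the filter edgeR called 1 in each of the latter comparisons. For MG_TRAP against Input 0.0135% of all genes passed with edgeR, and for PeMP_TRAP against SN_input and SN_input against Input it was 0%, with 2578 and 1010 genes at an unadjusted p under 0.05. The median log2 change of the members in PeMP_TRAP over SN_input was 5.41, against -0.27 over all genes, a description only, since Cldn5 passed the filter through these control PeMP_TRAP libraries alone. Ly6c1 did not overlap there, with 52, 0 and 0 counts in control SN_input against 577, 139 and 246 in PeMP_TRAP, and its adjusted p was 0.221. Whether enrichment changed with tamoxifen was tested too. In MG_TRAP edgeR called no member and 0% of all genes, with 1357 at an unadjusted p under 0.05. In PeMP_TRAP it called no member and 1.24% of all genes. The nearest by edgeR was Ly6c1 in PeMP_TRAP, at -13.81 ± 4.04 with an adjusted p of 0.065. For PeMP_TRAP, DESeq2 called 1 member lower, and edgeR without the filter called 2 lower.

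Other genes of the VEGF and angiopoietin pathway were read from a list of 12. In PeMP_TRAP against SN_input of tamoxifen mice 4 of the 10 tested were lower, where 26.1% of all genes were, and none higher. These were Ptprb, the endothelial phosphatase that acts on Tek (-8.73 ± 2.04, adjusted p = 0.00158), the ligands Angpt1 (-8.15) and Angpt2 (-6.03), and the growth factor Vegfc (-5.57). The coreceptor Nrp1 was at 2.23 with an adjusted p of 0.0788. The other ligands and the coreceptor Nrp2 lay between -0.29 (Vegfa) and 1.35 (Pgf), with Vegfb at 0.93, Vegfd at 1.13 and Nrp2 at 1.21, and none of these passed. Flt4 and Tie1 were not tested. The list's median was 0.32, against -0.75 over all genes. In tamoxifen against control PeMP_TRAP, Nrp1 was higher (5.24 ± 1.48, adjusted p = 0.0225) and Ptprb (-12.96), Vegfc (-12.39) and Vegfa (-5.22 ± 1.76) lower among 9 tested, where 5.56% of all genes were lower and 5.56% higher, with a median of 0.00. In MG_TRAP against Input, Vegfd (-6.62), Vegfc (-6.42) and Angpt2 (-4.84) were lower among 10, with a median of -1.03, where 2.15% of all genes were.

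Endothelial genes beyond the 10 moved in both directions. In PeMP_TRAP against SN_input of tamoxifen mice, where 26.1% of all genes were lower and 6.15% higher, 8 of 12 tested transcription and barrier regulators were lower, led by Tspan12, a coreceptor of Norrin signalling (-10.74 ± 1.89, adjusted p = 9.81e-05), and Fli1, an ETS factor, was higher at 3.98. The median of these 12 was -6.19. In second-set PeMP_TRAP, 10 of the 16 regulators and 8 of the 14 transporters listed were at 0 in every library. Fitted changes against 0 depend on the model, and the list medians were not set at a bound, so their size is a description. Of 14 transporters 6 were lower, the lowest being Slc22a8 at -6.06, and Slco2b1 was higher at 2.93, with a median of -3.01. Of 10 junction genes Emcn was lower and Eng, a TGF-beta coreceptor, higher at 3.14, with a median of 0.13. Of 13 other endothelial genes 4 were lower, led by Podxl at -9.30, with a median of -0.58, a share near that over all genes. Eng, Slco2b1 and Fli1, which are also known in macrophages or microglia, were higher in MG_TRAP than in Input as well, at 4.43, 5.98 and 5.80.

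The same lists were read between tamoxifen and control in PeMP_TRAP, where 5.56% of all genes were lower and 5.56% higher. Of 14 other endothelial genes tested 2 were lower, Spock2 (-5.72) and Tm4sf1 (-12.70), with a list median of -1.80. Of 8 junction genes 1 was lower, Esam (-5.85), with a median of -0.65. Of 13 transporters 2 were lower, the efflux pump Abcb1a (-8.64) and the glucose transporter Slc2a1 (-6.01), and 1 was higher, Slco2b1 (8.39), with a median of -2.94. None of 9 regulators passed, with a median of -3.15. The median over all genes was 0.00. Vwf, Adgrl4 and the regulator Sox18 passed the filter only through the control PeMP_TRAP libraries, so these counts and medians are a description.

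Markers of other cells moved in the same comparisons. In PeMP_TRAP against SN_input of tamoxifen mice, against 26.1% of all genes, 9 of 14 mural markers were lower, led by Kcnj8 at -8.85, with a median of -6.44. So were 3 of 9 fibroblast, 7 of 8 choroid plexus, 1 of 5 blood, 8 of 12 astrocyte, 8 of 12 neuron and 10 of 10 oligodendrocyte markers, and all 20 microglial markers were higher, where 6.15% of all genes were. The fibroblast and blood shares lie near that over all genes. Of the 16 mural markers listed, 13 were at 0 in every second-set PeMP_TRAP library, so the size of the mural median depends on the model. Between tamoxifen and control in PeMP_TRAP, 5 of 8 mural markers tested were lower, against 5.56% of all genes, with Notch3 at -13.16 and Rgs5 at -5.80, and 14 of 20 microglial markers were higher, where 5.56% of all genes were higher too. Acta2, 1 of these 5, passed the filter only through the control PeMP_TRAP libraries, so the mural count is a description. None of the fibroblast, blood or choroid plexus markers passed there. Their part in the changes of the endothelial genes was not tested.

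The median profile of the 10 genes over the 12 groups was compared with others by the root mean square distance of centred log2 CPM. Only the 6503 genes outside the 10 with a mean log2 CPM of at least 3 were ranked, so vessel genes at lower levels were left out. The nearest were Nr1h2 at 0.96, Snrnp200 at 1.04, Tmed4 at 1.06, Spen and Calu at 1.07, Nop56 at 1.08, Ermp1 at 1.12, Zdhhc8 at 1.14, Pogz at 1.15 and G6pc3 at 1.16, and the median distance was 2.34. Of the vessel markers outside the 10 that were ranked, Rgs5 came at 157 and Spock2 at 179, both named after their ranks were seen. The members themselves lay at 0.80 (Kdr) to 1.95 (Itm2a) from their own median.

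The authors' deposited table of the first set lists 8 of the 10 genes, without Kdr and Tek. In the authors' deposited table, PeMP_TRAP against SN_input gave log2 fold changes of 7.08 for Pecam1 (false discovery rate 0.00154), 7.06 for Flt1 (6.65e-05) and -7.16 for Bcam (0.0338). For MG_TRAP against Input, the authors' deposited table gave 4.61 for Pecam1 (0.0383) and -5.74 for Itm2a (0.0324). Its column names give no treatment for Input and SN_input, so its comparisons may rest on other libraries than the fits above, and the values are not compared with them.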

How the data were processed

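RNA from 44 libraries was amplified with SMART-Seq v4 and made into libraries with NEBNext Ultra II, per the labels' protocols. The authors deposited raw counts of reads per Ensembl gene. Per the submitters' processing notes, tools included FastQC 0.11.7, Trimmomatic 0.38, Bowtie2 2.3.5, STAR 2.7.0d and HTSeq 0.9.1, and edgeR for the first set. The genome build, annotation and counting options are not given in the sources used here. The authors' deposited table of the first set holds log2 CPM per library. For 3 comparisons it also gives, per the file headers, log2 fold changes, p-values with false discovery rates, and a likelihood ratio score. Symbols, exon lengths and coordinates came from GENCODE M21. Reads not assigned to a gene, 27.0% to 93.4% of a library's reads, were left out.

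Tests were run on the deposited counts in edgeR 4.0.16 under R 4.3.3 (TMM scaling, filterByExpr with a minimum count of 10, quasi-likelihood test, Benjamini-Hochberg adjustment over all genes tested, threshold 0.05), which was tested on simulated data. Fractions of tamoxifen mice were compared over 32 libraries with the set as a covariate, and first-set groups over 24 libraries. Log2 CPM used a prior count of 2. A fold against a group at 0 used the floor of 3 counts per library. Alternatives were DESeq2 1.42.0, limma 3.58.1 (voom), other scalings, no filter, subsets of libraries and a replicate block. All 10 members were named, with all genes of the VEGF and angiopoietin list, the highest and lowest called gene of each other list, and the 10 nearest genes by profile. The members and lists were chosen with earlier results of these data known.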

Additional observations from a re-analysis of the deposited data

Results flagged for a closer look

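Each of 40 groups of a member, fraction and tamoxifen treatment, 8 libraries each, was checked for a library far from the rest by Dixon's criterion, and 10 had one. For values without ties chance flags about 1 in 20 groups. Several of these groups hold libraries tied at 0 counts, where 1 or 2 counts are enough, and the rate for them was not measured.

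Of the high libraries on the log2 CPM scale, Flt1 in PeMP_TRAP D lay at 9.94, with the nearest other library at 1.77. Cldn5 lay at 2.57 in MG_TRAP F (nearest -1.60) and at 0.68 in PeMP_TRAP E (nearest -1.44). Cdh5 lay at 1.96 in MG_TRAP G (nearest -0.92) and at -0.19 in PeMP_TRAP E (nearest -2.81). Tek in SN_input F was at -0.50 and Slco1a4 in PeMP_TRAP D at -1.44, each beside libraries at -2.81. The values of Cldn5 and Cdh5 in PeMP_TRAP E, Tek in SN_input F and Slco1a4 in PeMP_TRAP D rest on 1 or 2 counts.

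Low libraries, at 0 counts and -2.81, were Cdh5 in Input E (nearest -0.96), Ly6c1 in Input D (nearest -0.12) and Itm2a in SN_input D (nearest 2.84).

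Differences between 2 contrasts also passed their own edgeR test. The enrichment in PeMP_TRAP minus that in MG_TRAP was -6.69 for Bcam, -7.38 for Cdh5 and -9.82 for Kdr on the log2 scale in tamoxifen mice. Second set minus first set, PeMP_TRAP against SN_input was -7.95 for Cldn5, -11.94 for Flt1 and -13.99 for Itm2a. Against MG_TRAP it was -14.18 for Flt1 (adjusted p = 0.00886), -19.60 for Itm2a (adjusted p = 0.000246) and -11.60 for Slco1a4 (adjusted p = 0.0263). These fitted values depend on the model wherever a group is at 0 and are no bounds.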

How the results depend on the processing

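Of the alternatives for the members' log2 fold changes, 1969 kept their side of the threshold, 81 lost the call and 38 gained one with the same sign, and 6 changed sign with a call in either fit. Of the 1969, 1798 also kept their sign, while 171, called in neither fit, changed sign or came to 0. The 6 with a call were Cdh5 in MG_TRAP against Input, to -4.72 without replicate G (range -4.72 to 0.46 leaving out replicates), and Itm2a in the second set alone, to -10.98 against SN_input, -10.46 against MG_TRAP and -10.62 for the enrichment difference. With limma voom, Bcam reversed to 1.11 against MG_TRAP and 1.23 for the enrichment difference. The cause was not tested.

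The number of members called moved as follows. In tamoxifen mice, MG_TRAP against Input (0) gave 2 with voom, 1 in the second set alone and 0 to 1 leaving out replicates. PeMP_TRAP against SN_input (6) gave 0 in the first set alone, 0 with voom, 2 with only the groups compared and 4 to 6 leaving out replicates. PeMP_TRAP against MG_TRAP (3) gave 0 in the first set alone, with voom and with only the groups compared, 5 in the second set alone and 2 to 4 leaving out replicates. SN_input against Input (0) gave 1 with only the groups compared. The enrichment difference (3) gave 1 with DESeq2, 0 in the first set alone and with voom, 6 in the second set alone and 1 to 4 leaving out replicates. In controls, MG_TRAP against Input (0) gave 1 with DESeq2, PeMP_TRAP against SN_input (0) gave 2 with DESeq2 and 1 without the filter, and SN_input against Input (0) gave 1 with each. Tamoxifen against control gave 2 with DESeq2 and 2 with voom in MG_TRAP (0), and in PeMP_TRAP (3) 5 with DESeq2, 1 with voom, 1 with only the groups compared and 1 to 3 leaving out replicates. Its PeMP_TRAP enrichment (0) gave 1 with DESeq2 and 2 without the filter. Set differences gave 1 with DESeq2 in MG_TRAP against Input (0), 0 with voom and 1 to 3 leaving out replicates in PeMP_TRAP against SN_input (3), and 1 with voom and 1 to 4 in PeMP_TRAP against MG_TRAP (3).

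Whether replicate letters pair the samples is not settled: deviations of same-letter libraries correlated at -0.150 to 0.405, over 0.1 in 18 of 66 pairs. No comparison of the main fits had every pair over 0.1. All 3 pairs of Input and MG_TRAP in first-set tamoxifen lay over 0.1 (0.176 to 0.405), and 38 of 66 correlated best with their own letter, a hint from the data and not from the design. With the letter as a replicate block, PeMP_TRAP against MG_TRAP gave 1 member and the enrichment difference 0. Scaling by DESeq2's size factors (RLE) moved the median of all genes by -0.52 in MG_TRAP against Input and gave 594 higher and 528 lower genes (733 and 338 with TMM). It moved that median by -0.70 in SN_input against Input, with 134 and 109 genes against 327 and 73. With fewer libraries fewer members passed the filter, 2 in the first set alone and 6 and 4 with only the groups compared (PeMP_TRAP against SN_input and MG_TRAP). Leaving out single control PeMP_TRAP libraries, a prior count of 0.5 and transcript length were added after seeing the data.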
